A study of Mus musculus with 12 samples.

Results

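The cytosolic ribosomal proteins measured here are 62 genes of 23185 with a named probe set, 39 of the large and 23 of the small subunit. They were chosen by symbol alone: Rpl or Rps followed by a digit, or Rpsa, Rplp0, Rplp1 or Rplp2, without the S6 kinases, the Rps19 binding protein and symbols that end in -ps and a number, which mark pseudogenes. The rule uses no measured value. Of the 62, 52 are the standard subunits and 10 are counted here, by their symbols, as copies of them, among them Rpl3l, Rpl6l and Rps27l. Whether each of these 10 is part of a ribosome was not tested. RefSeq lists 88 protein-coding mouse genes that the same rule would take, and 60 of these had a named probe set. The other 28, among them Rps6, Rpl11, Rplp2 and Rps4x, were not analysed here. The remaining 2 of the 62, Rpl6l and Rps4l, are pseudogenes in RefSeq.

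The ribosome joins a small subunit, which reads the messenger, to a large subunit, which forms the peptide bond, and each subunit is a scaffold of ribosomal RNA with one copy of nearly every protein. Messengers of ribosomal proteins are among the most abundant of most tissues, and most begin with a run of pyrimidines at the cap, the terminal oligopyrimidine tract, through which mTORC1 and the RNA-binding protein LARP1 set their translation and their stability. In muscle, mTORC1 acts downstream of insulin and amino acids, and the supply of ribosomes is one of the limits on protein synthesis.

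Pyrimidine runs near the annotated start are shown first, since the tract at the cap is what these messengers are known for, in 7 members to which the results below return. The runs shown are the longest in a window, and are not necessarily the tract at the cap. RefSeq promoter entries of build GRCm38.p6 held 48 of the 62 members. Each line gives 30 bases, 5′ to 3′ on the coding strand, around the longest run of C and T within 50 bases of the annotated start, with the run in capitals.
Rpl4: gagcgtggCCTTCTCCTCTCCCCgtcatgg
Rps15a: gcccggcccaCTCTCTTTCTgccatcttcc
Rpl27a: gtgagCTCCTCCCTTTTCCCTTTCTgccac
Rpl31: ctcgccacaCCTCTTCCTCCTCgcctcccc
Rpl24: acctcaaacccaCTCCCCgccaatgctgta
Rpl23: gagtgggcggggCCTCCCgttcatatccca
Rpl3l: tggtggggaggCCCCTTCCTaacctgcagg
The genes, with their identifiers, and their windows are Rpl4 (67891), chr9:64173405-64173434 on the plus strand, Rps15a (267019), chr7:118116143-118116172 on the minus strand, Rpl27a (26451), chr7:109519186-109519215 on the plus strand, Rpl31 (114641), chr1:39367824-39367853 on the plus strand, Rpl24 (68193), chr16:55966227-55966256 on the plus strand, Rpl23 (65019), chr11:97782404-97782433 on the minus strand, and Rpl3l (66211), chr17:24727846-24727875 on the plus strand. The run is 15 bases long in Rpl4, 10 in Rps15a, 20 in Rpl27a and 13 in Rpl31. It is 6 bases long in Rpl24 and in Rpl23, and 9 in Rpl3l. Counted from the annotated start, whose own base is position 1, the run began upstream at -4 in Rpl27a, -15 in Rps15a, -18 in Rpl31 and -36 in Rpl24. It began downstream at position 19 in Rpl23, 27 in Rpl4 and 32 in Rpl3l, so that none of the 7 runs began at the annotated start, and that of Rpl27a alone spans it. A run of at least 8 bases each C or T on the coding strand lay in this 100-base window in 39 of the 48 members (81.2%), against 39.3% of all 27025 genes with a promoter entry. It was found in 20 of 23 standard large subunit genes (87%), 13 of 17 standard small subunit genes (76.5%) and 6 of 8 copies (75%). The letters C then 4 pyrimidines exactly at the annotated start were found in 7 members (14.6%), against 3.01% of all genes. The letters CCGGAAG, searched on both strands of the same window, were found in 9 members (18.8%) and in 5.98% of all genes, and AAGATGGC in 3 members (6.25%) and in 1.68% of all genes. Members all have a named probe set. Of the 17452 promoter genes that do, 38.4% had the run and 2.72% the C then 4 pyrimidines. CCGGAAG was found in 7.88% of them and AAGATGGC in 2.13%. A gene with more than 1 annotated start was counted if any of its starts had the feature. These shares describe letters in a window and not sites that are used.

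The 12 arrays hold gastrocnemius, the large calf muscle, of mice described as BKS.Cg-Dock7m +/+ Leprdb/J, which lack a working leptin receptor and become obese and diabetic. All animals were 12 weeks old, all carried this genotype, and all had been given adenovirus for a short hairpin RNA (shRNA), made to silence a chosen messenger or, in the control virus, none, and were killed 1 week later. The control shRNA group received 4e9 plaque-forming units of control virus. The LCN13 shRNA group received 2e9 of LCN13 virus and 2e9 of control virus, and the TSC22D4 shRNA group the same amounts of TSC22D4 and control virus. The TSC22D4+LCN13 shRNA group received 2e9 of each target virus and no control virus. TSC22D4 is a transcriptional regulator of the TSC22 family, and LCN13 is a secreted lipocalin. Of 7 animals treated in a group, 3 described as representative were put on arrays: animals 18, 19 and 20 (control), 21, 22 and 23 (LCN13), 25, 26 and 27 (TSC22D4), and 29, 30 and 32 (both). P-values therefore measure the spread between chosen animals, and the labels used here do not say which tissue the virus reached.

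Levels are on the log2 scale, from 4.78 for the lowest probe set of any array to 14.09 for the highest. The muscle fibre genes Acta1, Ckm and Myh4 lay between 13.71 and 14.09 on every array, at or near the top, as the tissue label says. Tsc22d4 read 6.54, 6.43 and 6.79 in control, 6.81, 7.00 and 6.62 after LCN13 shRNA, 6.87, 6.86 and 6.75 after TSC22D4 shRNA, and 7.01, 6.72 and 6.71 with both. Its level was thus not lower with TSC22D4 virus than in control (log2 difference 0.24 for TSC22D4 shRNA, SE 0.121, limma adjusted p = 0.619). Obp2a, the present symbol of Lcn13, lay between 4.90 and 4.97 on all 12 arrays, next to the lowest value. The probe sets therefore do not show either knockdown in this tissue, and every group name below is the label's. Pairs of arrays correlated between 0.990 and 0.998 over all genes. The samples are whole muscle, so that fewer cells of a type and less RNA per cell cannot be told apart.

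Most ribosomal protein probe sets read low on these arrays. The median level of the 62 members over the 12 arrays was 5.54, against a median of 5.48 for all named genes, and 20 members lay within 0.5 of the lowest value of the arrays. In 21 members even the highest array was below the median of all genes. Among the lowest are standard subunits that every cell needs. Rpl10, which closes the maturation of the large subunit, read 4.88, Rpl9 read 4.97, Rps2, of the messenger entry channel, read 5.01, and Rplp0, the base of the stalk that recruits elongation factors, read 5.09. Probe sets differ in how brightly they respond, so a low reading is not a low amount of messenger. The orders, classes and percentiles of level given here describe readings of probe sets and not amounts of messenger. Changes of a probe set near the floor are compressed.

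At the other end, 16 members (25.8%) lay above the 75th percentile of all genes, a level of 7.10, and in 14 of them the lowest array did too. These are called the high-level members, a group formed after the levels had been seen. It holds 11 large subunit genes: Rpl4, whose protein lines the peptide exit tunnel, at 12.63, Rplp1, an acidic protein of the stalk, at 11.70, Rpl3l, the muscle form of Rpl3, at 11.27, Rpl8, next to the peptidyl transferase centre, at 10.63, and then Rpl6l, Rpl29, Rpl22, Rpl15, Rpl6, Rpl34 and Rpl27a. It holds 5 small subunit genes: Rps9 and Rps3, both of the messenger entry channel, at 10.34 and 8.68, Rps27l at 9.15, Rps19, a gene of Diamond-Blackfan anaemia, at 8.99, and Rps20 at 7.94. Just inside the limit was Rpl27a (7.36) and just outside it Rps21 (6.69). A further 18 members lay between the median and that limit, and 28 below the median. Within a group of 3 arrays the median SD was 0.124 for the high-level members, 0.123 for the middle class and 0.0658 for the members below the median.

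**Figure D1:**
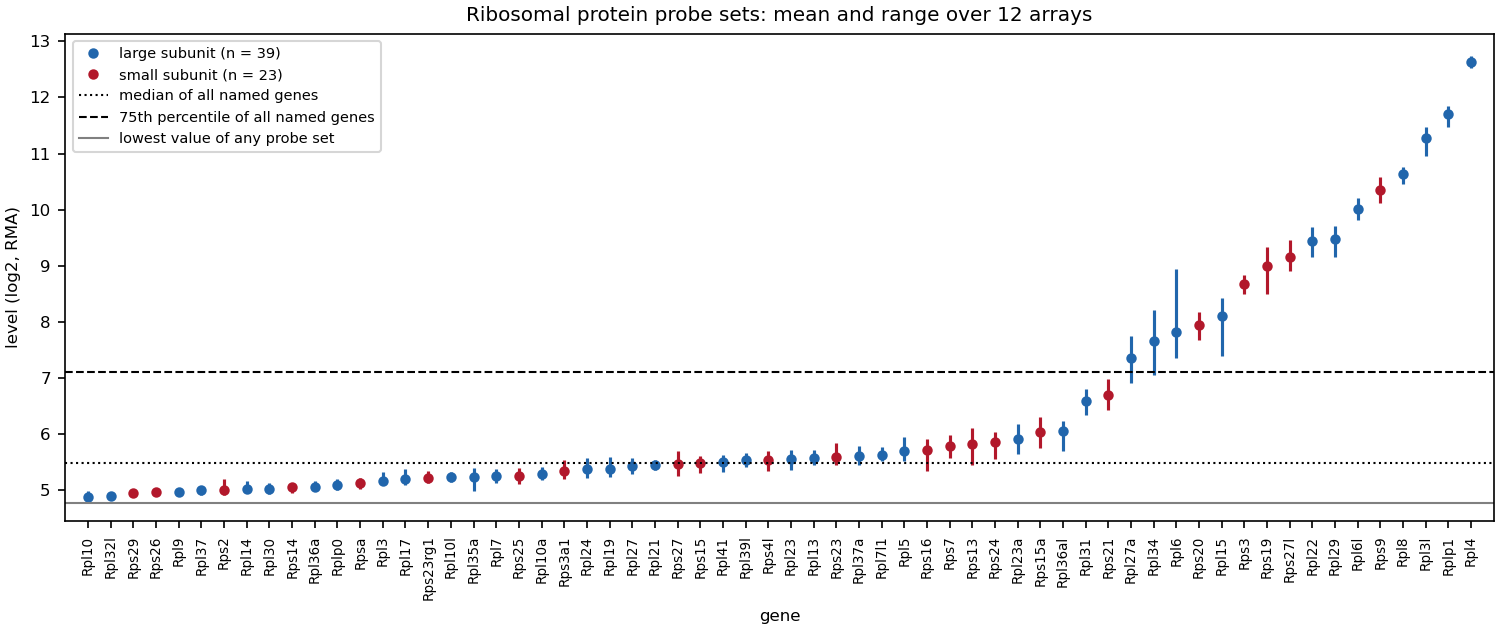
Mean level (points) and lowest to highest array (bars) of each of the 62 ribosomal protein genes over 12 arrays, on the log2 scale, in order of level, with the median and the 75th percentile of all named genes and the lowest value of any probe set as lines. Of the 62 members, 46 lie below the 75th percentile line, and Rpl4 is highest at 12.63.

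The lower classes had more pseudogenes named after them in RefSeq. The median number was 0 for the high-level members, 9 of the 16 having none. It was 2 for both lower classes, with none in 5 of the 18 middle members and 6 of the 28 below the median. Over the standard genes alone the medians were 1 for the high-level class, 2 for the middle class and 3 below the median. Other translation genes also gave readings at both ends. Eef1a1, the elongation factor of most tissues, lay between 4.97 and 5.21 and Tpt1, another messenger with a pyrimidine tract, between 4.88 and 5.08, whereas Eef2, the translocation factor, lay between 12.88 and 13.22 and Eef1a2, the elongation factor of muscle and neurons, between 12.37 and 12.75. The part of pseudogenes in the levels was not tested.

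After TSC22D4 shRNA no ribosomal protein gene passed the threshold against control, and the members that came nearest were lower. By limma, 0 of 62 had an adjusted p below 0.05, where 0.336% of all genes did (66 lower and 12 higher). At an unadjusted p of 0.05, 8 members (12.9%) were lower and 1 was higher, against 4.74% and 4.52% of all genes. Of these 8, 6 were among the 16 high-level members (37.5%, where 8.61% of all genes at such levels were lower). The median change of the 62 was -0.018, with 38 of 62 below 0 (61.3%), and that of all genes -0.0019, with 51.6% below 0. Among the high-level members the median was -0.15 and 12 of 16 were below 0, against -0.0024 and 50.6% for all genes above the 75th percentile.

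Rpl4 read 12.74, 12.73 and 12.65 in control animals 18, 19 and 20 and 12.55, 12.57 and 12.59 in TSC22D4 animals 25, 26 and 27. The groups did not overlap, and the difference of -0.14 (SE 0.0306) had a limma adjusted p of 0.13. Rpl8 read 10.65, 10.72 and 10.76 in control and 10.52, 10.54 and 10.52 after TSC22D4 shRNA, again without overlap (log2 difference -0.18, SE 0.0503, adjusted p = 0.23). Rpl23, whose free protein also binds the p53 regulator Mdm2, had the smallest adjusted p of all members (0.0888). Its arrays read 5.72, 5.67 and 5.58 in control and 5.41, 5.35 and 5.49 after TSC22D4 shRNA, all close to the median of all genes, with a difference of -0.24 (SE 0.047).

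Both Rps20 (-0.21, adjusted p = 0.285 by limma) and Rps3 (-0.21, adjusted p = 0.326) were lower by about the same amount, without overlap. Rpl15 had the largest difference of any member, -0.55 (SE 0.177, adjusted p = 0.344), and the groups overlapped: animals 25, 26 and 27 read 8.23, 7.39 and 7.72, and control animals 8.43, 8.38 and 8.17. The groups did not overlap in 9 members that were lower (14.5%) and in 2 that were higher, Rpl36al and Rps16 (3.23%), against 9.15% and 7.8% of all genes. In Rpl6 a single animal stood apart: control animal 18 read 8.95 and animals 19 and 20 both 7.83, while the TSC22D4 arrays read 7.90, 7.73 and 7.42 (difference -0.52, SE 0.322, adjusted p = 0.719).

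After LCN13 shRNA no member passed against control either, where 0.85% of all genes did (0.612% lower and 0.237% higher). At an unadjusted p of 0.05, 3 members (4.84%) were lower and 1 (1.61%) was higher, against 6.49% and 5.89% of all genes. The median change was -0.010 over the 62 members, with 37 of 62 below 0 (59.7%), and 0.0014 over all genes, with 48.8% below 0. Over the high-level members it was -0.10, with 13 of 16 below 0, against -0.00027 and 50.1% over all genes above the 75th percentile.

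The member nearest the threshold was higher. Rpl29, a large subunit protein also known as a heparin-binding protein, read 9.16, 9.32 and 9.34 in control animals and 9.66, 9.57 and 9.53 in LCN13 animals 21, 22 and 23. No LCN13 array overlapped control, and the difference was 0.31 (SE 0.0893, limma adjusted p = 0.166). Next came Rpl3l, which replaces Rpl3 in the ribosomes of heart and skeletal muscle. It read 11.18, 11.33 and 11.46 in control and 10.95, 11.09 and 11.14 after LCN13 shRNA and was lower without overlap (log2 difference -0.26, SE 0.0825, adjusted p = 0.203). Rpl6l (-0.21, adjusted p = 0.353) and Rplp1 (-0.16, adjusted p = 0.402) followed, then Rpl31 (0.15, adjusted p = 0.441) and Rps15 (0.12, adjusted p = 0.469). Rpl3l was the only member that was lower without overlap (1.61%, against 9.02% of all genes), and Rpl29, Rpl31, Rps26 and Rpsa were higher without overlap (6.45%, against 9.74%).

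When both viruses were given, 4 members fell against control and none rose: Rps15a, Rpl4, Rpl24 and Rps20. That is 6.45% of the members, where 4.34% of all genes passed, 2.62% lower and 1.72% higher, and the falls were small, between 1.11-fold and 1.23-fold. Of the 4, Rpl4 and Rps20 are high-level members. At an unadjusted p of 0.05, 13 members (21%) were lower and 2 higher (3.23%), against 11.6% and 8.81% of all genes.

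Rps15a, a small subunit protein, read 6.05, 6.18 and 6.09 in control and 5.75, 5.86 and 5.82 in animals 29, 30 and 32. Every array of the double group lay below every control array, from 6.11 ± 0.0672 (SD, n = 3) to 5.81 ± 0.0567 (SD, n = 3), and the fall was 0.30 (SE 0.0559, limma adjusted p = 0.0214). Rpl4 read 12.52, 12.58 and 12.57 in the double group, below all control arrays, and fell by 0.15 (SE 0.0306, adjusted p = 0.0273). Its level of 12.56 ± 0.0336 (SD, n = 3) was near that after TSC22D4 shRNA alone, 12.57 ± 0.0198 (SD, n = 3).

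Rps20, which is ubiquitinated when ribosomes collide, read 8.04, 8.18 and 7.99 in control and 7.84, 7.68 and 7.88 with both viruses, without overlap, and fell by 0.27 (SE 0.0621, limma adjusted p = 0.0409). Rpl24, whose protein forms a bridge between the subunits, read 5.43, 5.45 and 5.57 in control and 5.30, 5.22 and 5.24 with both viruses, and fell by 0.23 (SE 0.0497, adjusted p = 0.0364). Its level lay below the median of all genes, at the 45.2nd percentile. Just short of the threshold were Rpl29, higher by 0.36 (SE 0.0893, adjusted p = 0.0541), and Rpl22, a large subunit protein known for its part in T cell development (-0.33, SE 0.0971, adjusted p = 0.0884). Rpl29 read 9.60, 9.60 and 9.71 in the double group, all above control, which is as high as after LCN13 shRNA alone.

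None of the 4 calls was stable to the removal of single arrays. The call of Rps20 was lost on removal of 10 of the 12 arrays, all but those of LCN13 animals 21 and 22 (adjusted p up to 0.106), and that of Rpl24 on removal of 8, among them all 3 of control and all 3 of TSC22D4 shRNA (adjusted p up to 0.107). Those of Rpl4 and Rps15a were each lost on removal of 4: control animals 18 and 19 for Rpl4, 19 and 20 for Rps15a, and double group animals 29 and 32 for both. With the 6 compared arrays alone in limma, 0 of the 4 passed (adjusted p between 0.0619 and 0.144), and 1, 0 and 1 members passed without control animals 18, 19 and 20, 2 without TSC22D4 animal 25, and 2 and 0 without double group animals 29 and 32. The groups did not overlap in 13 members that were lower (21%) and 2 that were higher, Rpl27a and Rpl29 (3.23%), against 14.3% and 9.48% of all genes. The median change was -0.028 over the 62 members, with 38 of 62 below 0 (61.3%), and -0.15 over the high-level members, with 12 of 16 below 0. All genes had a median of -0.0050, with 53.4% below 0, and those above the 75th percentile -0.026, with 55.2% below 0.

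**Figure D2:**
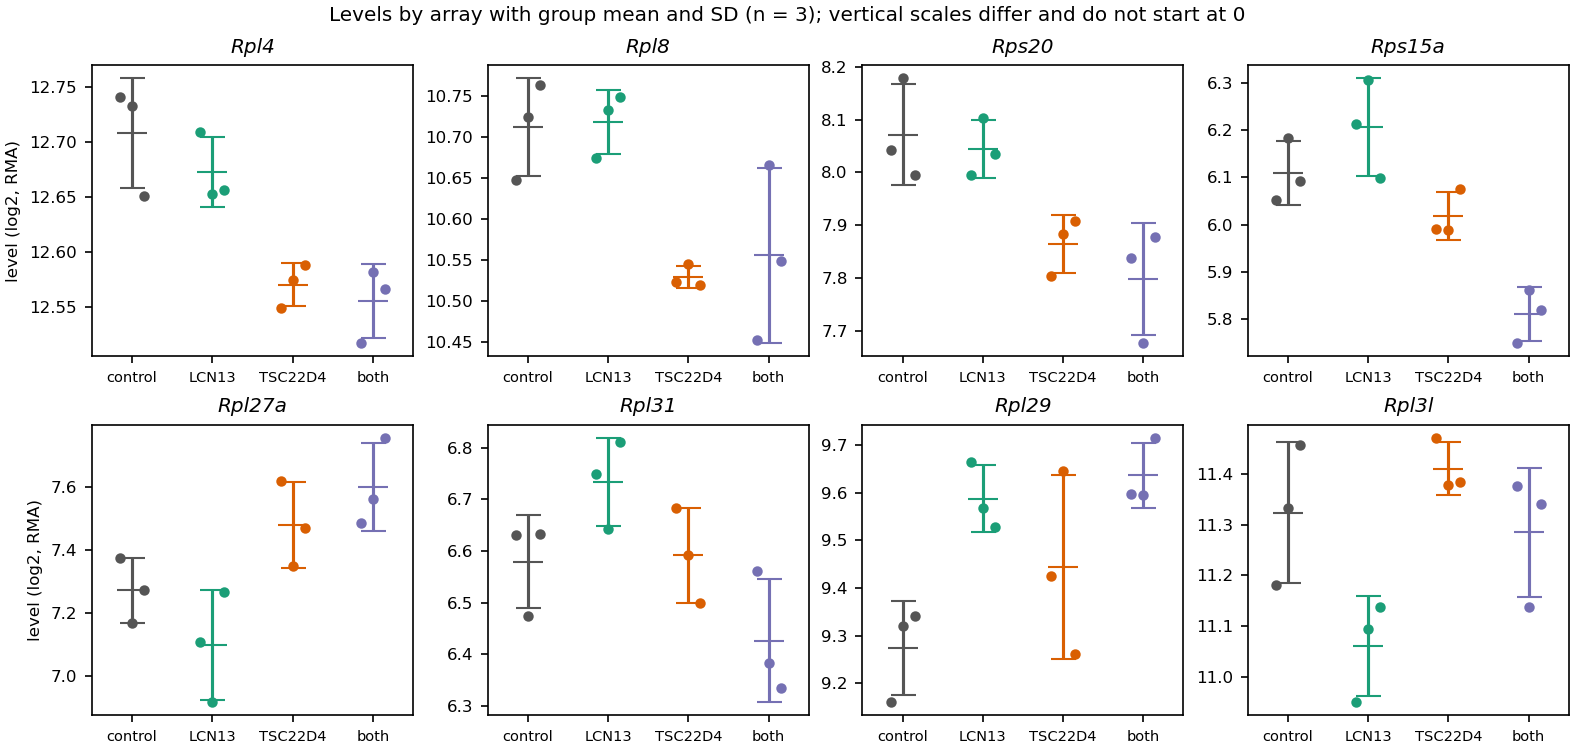
Level of 8 ribosomal protein genes on each of 12 arrays, on the log2 scale, with the mean and SD of each group of 3; the vertical axes differ and do not start at 0. Rpl4 and Rps20 are lower in both groups given TSC22D4 virus than on all 6 other arrays, while the group mean of Rpl29 is lowest in control.

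Markers of some other cell types also differed between the double group and control, where 1.72% of all genes were higher and 2.62% lower. The summed log2 level of 8 macrophage and leukocyte markers was 55.6 to 60.3 in the double group and 53.5 to 54.3 in control, and 2 of the 8, Mrc1 (limma adjusted p = 0.02) and Adgre1 (adjusted p = 0.0405), rose. The T cell gene Cd3e lay between 5.13 and 5.24 on all arrays, below the median of all genes. Double group animal 30 stood apart with 60.3, and the other double group animals read 55.6 and 56.3. For 3 red cell markers the range was 19.14 to 22.37 against 16.04 to 17.83, and 2 of the 3, Hbb-b1 (adjusted p = 0.0329) and Alas2 (adjusted p = 0.048), rose. For 11 fibroblast and tendon markers it was 108 to 115 against 99.2 to 109, with none past the threshold, and it was 110 to 113 after LCN13 shRNA and 106 to 112 after TSC22D4 shRNA. For 4 markers of dividing cells it was 20.9 to 21.2 against 20.4 to 20.5, and 2 of the 4, Mki67 (adjusted p = 0.00903) and Top2a (adjusted p = 0.0254), rose. The 4 satellite cell markers summed to 24.56 to 24.87 against 23.75 to 24.00, and the 2 Schwann cell markers to 18.04 to 19.39 against 17.20 to 18.03, both without overlap. The 5 adipocyte markers summed to 52.46 in double group animal 30 and to 47.26 and 47.98 in the other double group animals, against 46.32 to 48.56 in control. The 6 endothelial markers summed to 54.17 to 56.17 in the double group and 53.85 to 56.09 in control. The 5 hepatocyte markers summed to 30.46 to 36.91 against 30.79 to 34.83. Both of these lists overlapped, with none past the threshold. The 15 muscle fibre markers summed to 199.46 to 200.29 in the double group and 199.77 to 200.94 in control, and 1 of them, Ryr1, fell (adjusted p = 0.0266). The part of these cells in the differences of ribosomal protein genes was not tested.

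Against LCN13 shRNA alone, 2 of the 62 members fell in the double group and 1 rose. These shares are close to those of all genes, of which 2.9% fell and 1.32% rose. Rps15a read 6.21, 6.31 and 6.10 after LCN13 shRNA, above all arrays of the double group, and the fall of 0.39 (SE 0.0559, limma adjusted p = 0.00938) had the smallest adjusted p of any member. It held whichever of the 12 arrays was removed, and was lost with the 6 compared arrays alone (adjusted p = 0.088). Rpl31, at the rim of the peptide exit tunnel, read 6.75, 6.64 and 6.81 after LCN13 shRNA and 6.56, 6.38 and 6.34 with both viruses, a call of -0.31 (SE 0.074, adjusted p = 0.0497) that was lost on removal of any array but that of double group animal 29 (adjusted p between 0.0512 and 0.14).

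The rise was that of Rpl27a, a large subunit protein with the longest pyrimidine run of those shown above. It read 7.11, 6.92 and 7.27 after LCN13 shRNA and 7.49, 7.56 and 7.75 with both viruses, without overlap, and rose by 0.50 (SE 0.105, limma adjusted p = 0.0323). The call was lost without LCN13 animals 21 or 22, TSC22D4 animal 27, or double group animals 29 or 32, with adjusted p between 0.0517 and 0.092. Near the threshold were Rps20 (-0.25, adjusted p = 0.0565), Rpl4 (-0.12, adjusted p = 0.0634) and Rps19 (-0.47, adjusted p = 0.077). The groups did not overlap in 11 members that were lower (17.7%) and in Rpl27a alone that was higher (1.61%), against 13.4% and 9.14% of all genes. All 3 red cell markers also rose in this comparison, Hbb-b1 by 1.98 (adjusted p = 0.029), Alas2 by 1.57 (adjusted p = 0.0357) and Slc4a1 by 0.63 (adjusted p = 0.0268), with sums of 19.14 to 22.37 against 16.16 to 16.56. Adgre1, 1 of the 8 macrophage and leukocyte markers, rose by 0.47 (adjusted p = 0.0472), and Mki67, 1 of the 4 markers of dividing cells, by 0.22 (adjusted p = 0.0326). Their part in the differences of the members was not tested.

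Against TSC22D4 shRNA alone, the double group showed no gene past the threshold in limma, member or other (0% of 23185 genes). At an unadjusted p of 0.05, 4 members (6.45%) were lower and 2 higher (3.23%), against 6.03% and 4.47% of all genes. The nearest were Rpl30 (-0.13, adjusted p = 0.234), at 5.02 next to the floor, and Rps15a (-0.21, adjusted p = 0.27). Rpsa, the laminin receptor and a small subunit protein (0.090, adjusted p = 0.378), Rps13 (-0.27, adjusted p = 0.393), Rpl10l (-0.10, adjusted p = 0.408) and Rpl23 (0.11, adjusted p = 0.469) followed. The groups did not overlap in 5 members that were lower (8.06%) and 2 that were higher (3.23%), against 8.76% and 5.87% of all genes.

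Between the single groups, TSC22D4 shRNA and LCN13 shRNA, 0 members passed in limma, and 0.125% of all genes did. At an unadjusted p of 0.05, 10 members (16.1%) were lower and 4 higher (6.45%) in TSC22D4 shRNA, against 7.03% and 6.94% of all genes. Rpl3l came nearest. It read 11.47, 11.38 and 11.38 after TSC22D4 shRNA, above all LCN13 arrays, with a difference of 0.35 (SE 0.0825, adjusted p = 0.105). Rpl23 (-0.19, adjusted p = 0.117), Rpl8 (-0.19, adjusted p = 0.14), Rpl27a (0.38, adjusted p = 0.149), Rps15 (-0.21, adjusted p = 0.157) and Rps15a (-0.19, adjusted p = 0.172) followed. The groups did not overlap in 8 members that were lower (12.9%) and 5 that were higher (8.06%), against 11.3% and 9.98% of all genes.

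The interaction asks whether TSC22D4 virus moved a gene differently with and without LCN13 virus. By limma 0 members passed, where 0.125% of all genes did, and 2 members (3.23%) were lower and 1 (1.61%) higher at an unadjusted p of 0.05, against 5.53% and 4.04% of all genes. The nearest were Rps15a (-0.30, SE 0.079, adjusted p = 0.229) and Rpl31 (-0.32, SE 0.105, adjusted p = 0.335), then Rpl23 (0.16, adjusted p = 0.493), Rplp1 (0.22, adjusted p = 0.523), Rpl30 (-0.094, adjusted p = 0.538) and Rps19 (-0.38, adjusted p = 0.557). So Rps15a, which fell with both viruses against control and read -0.09 (adjusted p = 0.717) with TSC22D4 virus alone, was not shown to differ between the backgrounds. The comparisons share arrays, the 3 against control above all, and their values are not independent of each other.

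**Figure D3:**
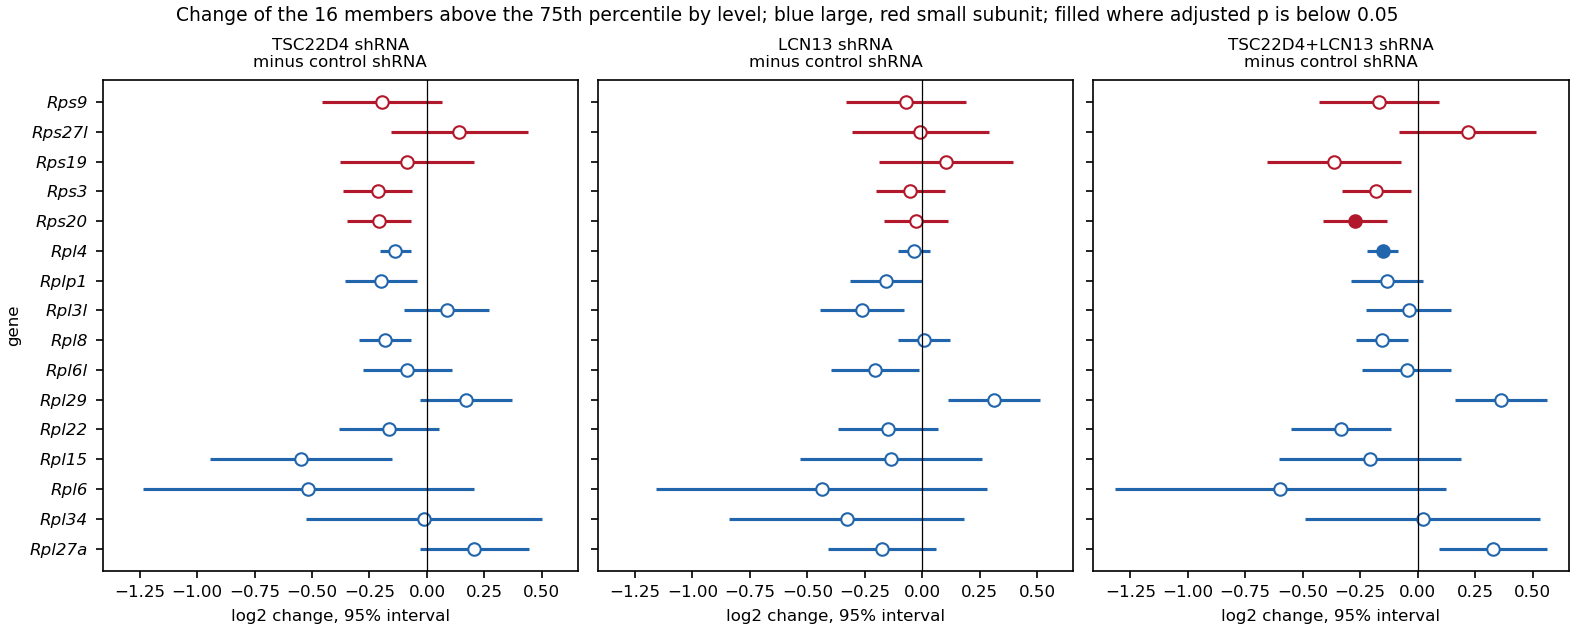
Log2 change with 95% interval of the 16 ribosomal protein genes above the 75th percentile by level in the 3 comparisons with control (3 arrays against 3), by limma; blue is the large and red the small subunit, and filled points have an adjusted p below 0.05. Only Rps20 and Rpl4 are filled, both where the 2 target viruses were given together, and the interval of Rpl6 is the widest.

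The groups given TSC22D4 virus were then set against those without it, 6 arrays against 6, a contrast added after the data were seen. It averages the effect over the presence and absence of LCN13 virus. Here 5 members fell (8.06%) and 1 rose (1.61%), where 2.89% and 1.52% of all genes did. Rps15a fell by 0.24 (SE 0.0395, limma adjusted p = 0.0121), Rpl4 by 0.13 (adjusted p = 0.0145), Rps20 by 0.23 (adjusted p = 0.0236), Rpl8 by 0.17 (adjusted p = 0.0291) and Rpl23 by 0.16 (adjusted p = 0.0294), and Rpl27a rose by 0.35 (adjusted p = 0.0313). All 6 arrays with TSC22D4 virus lay below all 6 without it in Rpl4, Rps20 and Rpl23 (4.84% of members, against 1.51% of all genes), and no member was higher in the same manner (0.798% of all genes). Of these genes Rps15a, Rpl4 and Rps20 had passed in the double group against control, and Rps15a and Rpl27a against LCN13 shRNA alone. Each of those comparisons uses 6 of the same 12 arrays. Markers moved along the same split: all 3 red cell markers rose (Hbb-b1 by 1.54, adjusted p = 0.0191), with sums of 17.70 to 22.37 with TSC22D4 virus and 16.04 to 17.83 without it. Of the 8 macrophage and leukocyte markers Adgre1 (0.35, adjusted p = 0.0415) and Mrc1 (0.44, adjusted p = 0.0494) rose, with sums of 54.6 to 60.3 against 53.1 to 55.8, and Mki67 rose by 0.15 (adjusted p = 0.0418). Their part in the members' differences, and in the subunit scores below, was not tested.

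The same average for LCN13 virus gave 0 members past the threshold, where 0.617% of all genes passed. At an unadjusted p of 0.05, 4 members were lower and 3 higher, against 7.42% and 5.98% of all genes. In no member did the 6 arrays with the virus lie apart from the other 6, where 0.388% of all genes were lower and 0.302% higher in that way. Rpl29 was nearest with 0.25 (SE 0.0632, limma adjusted p = 0.116), then Rpl30 with -0.084 (SE 0.0217, adjusted p = 0.123) and Rpl3l with -0.19 (SE 0.0583, adjusted p = 0.174). Every array given any target virus read higher for Rpl29 than the highest control array (9.34) except that of TSC22D4 animal 27 (9.26). This pattern was noticed after the values were seen, and how many other genes show it was not counted.

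The 2 subunits were compared by the mean deviation of their members from each gene's own mean over the 12 arrays. For the 39 large subunit genes it was 0.035 ± 0.0352 (SD, n = 3) in control, -0.014 ± 0.0134 after LCN13 shRNA, -0.013 ± 0.0463 after TSC22D4 shRNA and -0.0076 ± 0.0263 with both. Control animal 18 (0.075) and TSC22D4 animal 25 (0.040) stood above the rest, and the groups overlapped. For the 23 small subunit genes it was 0.026 ± 0.00566 in control, 0.036 ± 0.0212 after LCN13 shRNA, -0.016 ± 0.00676 after TSC22D4 shRNA and -0.046 ± 0.0329 with both. All 6 arrays without TSC22D4 virus lay between 0.019 and 0.060, and all 6 with it between -0.076 and -0.0082, so that these did not overlap.

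The separation of the small subunit is one of hundredths on the log2 scale, and it was noticed in these data. The difference of large minus small subunit ranged from -0.075 to -0.029 on the LCN13 arrays, from 0.021 to 0.058 on those of the double group, from -0.018 to 0.055 on the control arrays and from -0.025 to 0.049 on the TSC22D4 arrays. By medians of the fitted changes, large minus small was 0.026 for TSC22D4 shRNA, -0.014 for LCN13 shRNA and -0.015 for both viruses, each against control. The last turned to 0.088 over genes above the median level and to 0.024 and 0.052 without control animal 18 and double group animal 30. Among the 5 high-level small subunit genes the 6 arrays with TSC22D4 virus lay between -0.14 and 0.00032 and the 6 without it between 0.023 and 0.11. These 5 genes are part of the same small subunit set, so their values are not independent of its separation.

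**Figure D4:**
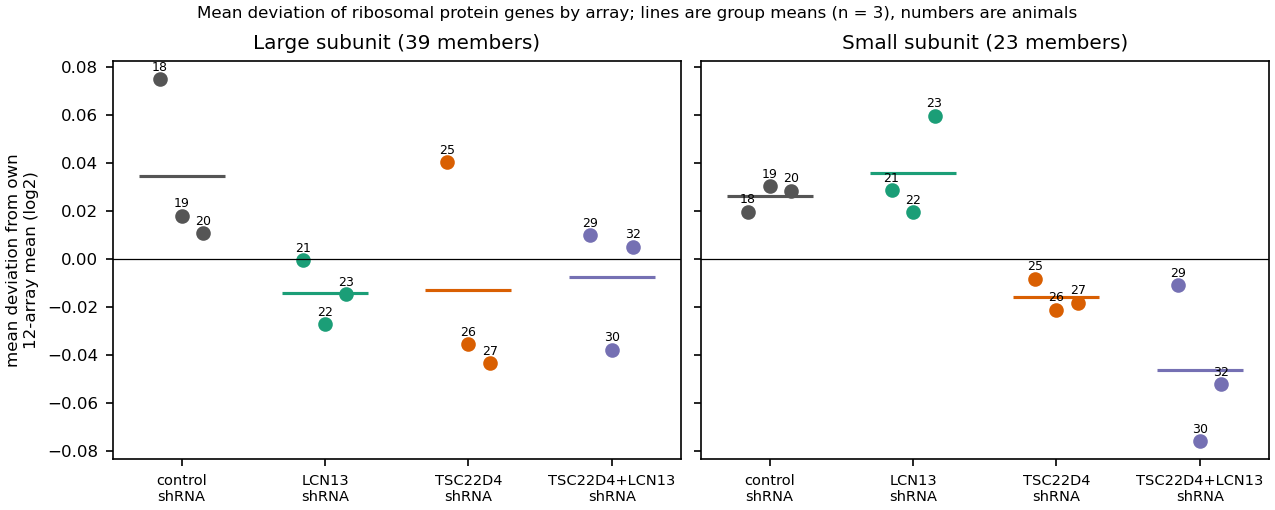
Mean deviation of the 39 large (left) and 23 small (right) subunit genes from each gene's 12-array mean, on the log2 scale, for each array, labelled with the animal, with the group mean as a line. In the small subunit the 6 arrays with TSC22D4 virus lie below 0 and the 6 without it above 0; in the large subunit the groups overlap and control animal 18 is highest.

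The 10 copies were followed for themselves, since some copies can replace their parent in a tissue. None passed in any of the 7 comparisons by limma (smallest adjusted p 0.105, Rpl3l between the single groups). Rpl3l, at the 97.9th percentile, differed from control by 0.087 after TSC22D4 shRNA, -0.26 after LCN13 shRNA and -0.039 with both. For its parent Rpl3, at the 31.8th percentile, these differences were 0.0064, 0.011 and 0.049 (adjusted p of at least 0.671). Rps27l, a target of p53 at the 89.1st percentile, differed by 0.14, -0.0080 and 0.22 from control in the same order (smallest adjusted p 0.406), and its parent Rps27, at the 49.4th, by -0.19, -0.088 and -0.061. Rpl6l, the pseudogene, at the 93.8th percentile, differed by -0.085, -0.21 and -0.048, and its parent Rpl6 by -0.52, -0.44 and -0.60, with SE of 0.322.

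Of the other copies, Rpl36al (63.3rd percentile) and its parent Rpl36a (21.4th), Rpl7l1 (54.4th) and Rpl7 (37.5th), and Rps23rg1 (36.1st) and Rps23 (53.6th) had no value past the threshold. Rpl39l and Rpl10l, known from the testis, stood at the 51.7th and 36.4th percentiles, Rps4l at the 51.7th and Rpl32l at the 4.42nd. Against control with both viruses the 10 copies had a median change of -0.020 and the 52 standard genes one of -0.028. Shared sequence between a copy and its parent can put signal of one on the probes of the other, and the labels used here do not say how the probe sets treat this.

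**Figure D5:**
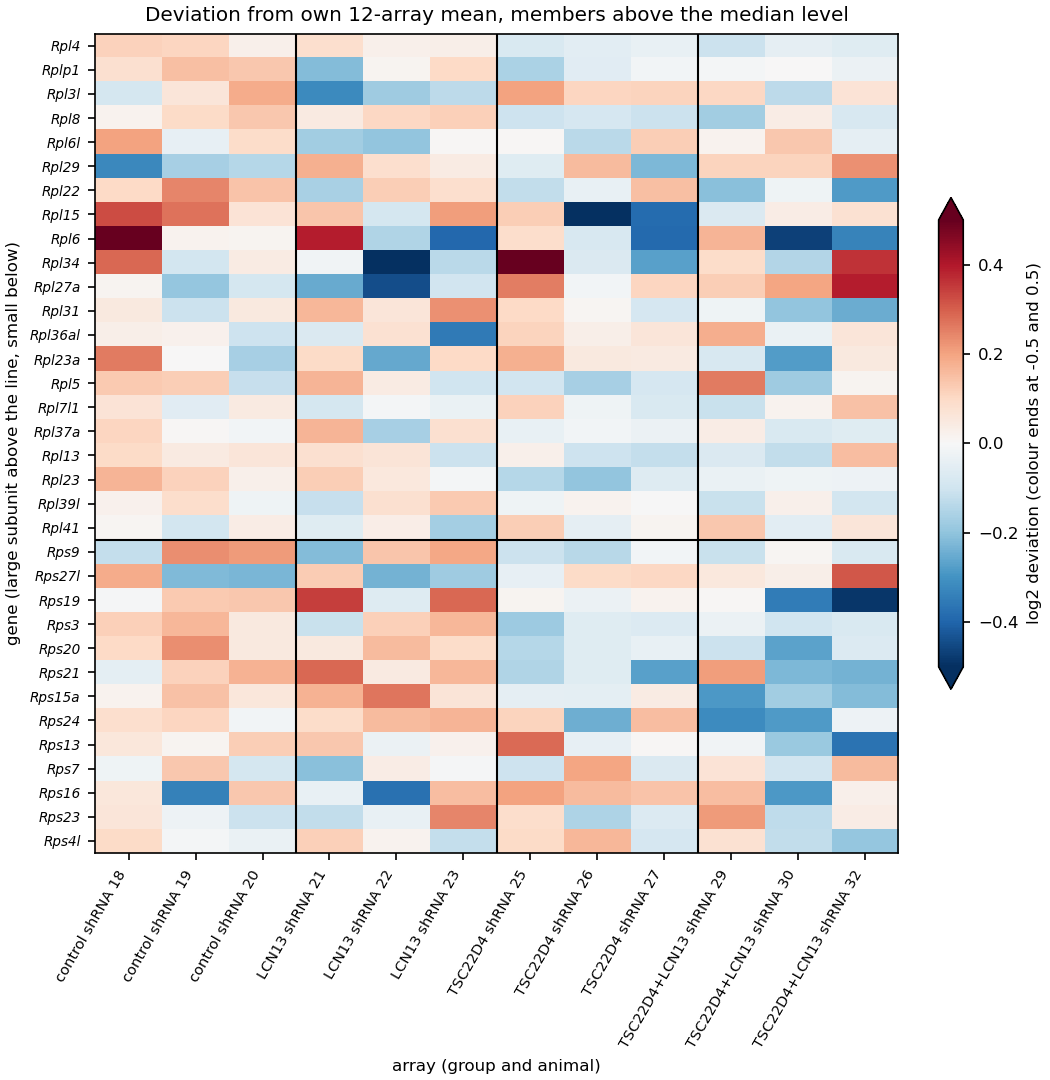
Deviation of the 34 ribosomal protein genes above the median level from each gene's 12-array mean, on the log2 scale (red higher, blue lower, colour ending at -0.5 and 0.5), for 12 arrays in 4 groups, large subunit above the line and small below. Rpl4 and Rps20 are blue on all 6 arrays with TSC22D4 virus; Rpl6 and Rpl15 vary within groups.

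Genes that build and drive the ribosome were taken from lists of their own. Elongation factors and other messengers with a pyrimidine tract, 17 of 18 listed genes, had 4 lower and 1 higher with both viruses against control, where 2.62% and 1.72% of all genes were. Of the 5797 genes above the 75th percentile by level, where most genes of this list and of the next lay, 5.24% were lower and 3.29% higher. Eef2 fell by 0.24 (limma adjusted p = 0.0377), Eef1g, a subunit of the exchange factor, by 0.27 (adjusted p = 0.0378), Eif4b, a helper of the cap helicase, by 0.42 (adjusted p = 0.0119) and Eif3e, of the scaffold that joins messenger and small subunit, by 0.47 (adjusted p = 0.0377). Pabpc1, the poly(A)-binding protein, rose by 0.26 (adjusted p = 0.03). None passed after TSC22D4 shRNA (smallest adjusted p 0.238, Eif4b) or LCN13 shRNA alone (0.0588, Nap1l1).

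Initiation factors, 29 of 35 measured, had 8 lower and none higher with both viruses against control, beside the same shares of all genes (2.62% and 1.72%) and of genes at such levels (5.24% and 3.29%). Eif4a2, a cap helicase, fell by 0.50 (limma adjusted p = 0.00813), and Eif2s2, a subunit of the factor that brings the first tRNA, by 0.42 (adjusted p = 0.00451). Eif2s2 also fell after TSC22D4 shRNA alone, by 0.38 (adjusted p = 0.0153), the only one of the list to do so, where 0.285% of all genes were lower. None of the list passed after LCN13 shRNA (smallest adjusted p 0.0725, Eif3b). Eif3e and Eif4b stand in both lists. In these lists 26 of 29 initiation factors and 12 of 17 tract messengers lay above the 75th percentile by level, against 16 of 62 ribosomal protein genes.

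Ribosome biogenesis had 1 of 50 genes lower with both viruses, Ncl (nucleolin, -0.27, limma adjusted p = 0.00707), and none past the threshold after TSC22D4 shRNA (smallest adjusted p 0.124, Ncl) or LCN13 shRNA (0.0659, Rrs1). RNA polymerase I, which makes ribosomal RNA, had 1 of 15 higher, Znrd1, a small subunit of the enzyme, which rose by 0.32 with both viruses (adjusted p = 0.00941) and by 0.29 after TSC22D4 shRNA (adjusted p = 0.0494). The mTORC1 list had 3 of 34 lower and 1 higher with both viruses: Eef2k, the kinase that inhibits Eef2 (-0.42, adjusted p = 0.0102), Lamtor2, of the complex that brings mTORC1 to the lysosome (-0.36, adjusted p = 0.0357), Larp4, an RNA-binding protein that protects poly(A) tails (-0.27, adjusted p = 0.00926), and Tbc1d7, of the TSC complex that inhibits mTORC1 (0.58, adjusted p = 0.0322). Eef2k also fell after LCN13 shRNA (-0.36, adjusted p = 0.0409). With both viruses 2.62% of all genes were lower and 1.72% higher. Of genes above the 75th percentile by level, where 27 of the 34 mTORC1 genes lay, 5.24% were lower and 3.29% higher. After LCN13 shRNA 0.612% of all genes were lower, and after TSC22D4 shRNA 0.0518% were higher. Of 5 genes that are fused to or act with ribosomal proteins, among them Fau and Naca, none passed against control, Naca coming nearest with both viruses (-0.24, adjusted p = 0.0562). With both viruses the median change from control was -0.13 for initiation factors and for the tract messengers. It was -0.079 for the mTORC1 list, -0.075 for the fused and associated genes, -0.049 for RNA polymerase I and -0.036 for biogenesis. The 62 ribosomal protein genes had -0.028 and all genes -0.0050. The lists differ from the members in level, so these medians are not like for like. Over the 16 high-level members the median was -0.15, and over all genes above the 75th percentile -0.026.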

How the data were processed

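Total RNA of 12 muscles had been labelled with biotin and hybridised to 1-colour Affymetrix arrays, per the labels' protocols. The authors deposited log2 values of 25206 probe sets, made with RMA per the submitters' processing notes. RMA gives all arrays the same distribution, so a shift of most transcripts together would not be seen. RMA's version, the probe set definition and the build were not given in the sources used here, nor was a batch. The annotation table gave a gene symbol to 23185 probe sets, 1 for each gene, and the other 2021 entered only an alternative. No filter was applied.

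One limma model (version 3.58.1, lmFit and eBayes, under R 4.3.3) took every named gene on the 12 arrays with a mean for each of 4 groups, which leaves 8 residual degrees of freedom. It gave 7 comparisons, with two-sided p-values adjusted by Benjamini-Hochberg over 23185 genes and a threshold of 0.05. The rule for the members uses symbols alone, but the set and the lists were chosen with earlier results of these data known. The named members of a comparison are those past the threshold and then those of smallest p up to 6, beside the copies with their parents. Of another list they are those past the threshold, up to 4, otherwise up to 2. Other members named were chosen after their values were seen. The steps were tested on simulated data. Alternatives were 8 other settings and the removal of each of the 12 arrays. The restriction to members above the 75th percentile by level and the average over both backgrounds were added after the data were seen. The windows and pseudogene names came from RefSeq.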

Additional observations from a re-analysis of the deposited data

How the results depend on the processing

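Quantile normalization, median centring, all probe sets and the trend and robust options moved no count of ribosomal protein genes by over 1.5 times, though not always with the same members. Quantile normalization and centring could change little here, since RMA already gives all arrays the same distribution. With array weights 1 member passed for both viruses against LCN13 shRNA, and with the compared arrays alone 0 passed there and 0 for both viruses against control. On removal of 1 array these counts ranged from 1 to 3, with 1 without LCN13 animal 21 or TSC22D4 animal 27, and from 0 to 5. Rps3 passed against control without LCN13 animal 21, Rps19 without double group animal 29 and Rpl8 without double group animal 30. For both viruses against control, Rpl29 passed with the trend and robust options, over genes above the median level and without TSC22D4 animals 26 or 27. Rpl4 was lost with the trend and robust options (adjusted p = 0.0909) and over genes above the median level (0.098), and Rps20 with the trend and robust options (0.0903) and array weights (0.0644). For both against LCN13 shRNA, Rpl31 was lost with the trend and robust options (0.069) and array weights (0.0687), and Rpl27a with array weights (0.0544). The average over both backgrounds gave 6 members for TSC22D4 virus, where the comparison without LCN13 virus gave 0.

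Over genes above the median level the median change of the members was -0.0555 for TSC22D4 shRNA, -0.0423 for LCN13 shRNA and -0.115 for both, each against control, -0.078 for both against LCN13 shRNA, -0.0645 for TSC22D4 against LCN13 shRNA and 0.0527 for the interaction. The large minus small subunit difference of medians was then -0.00657 for TSC22D4 shRNA against control, 0.0882, 0.085 and 0.0999 for both viruses against control, TSC22D4 and LCN13 shRNA, 0.084 for TSC22D4 against LCN13 shRNA and 0.14 for the interaction.

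Over the 16 high-level members 2 passed for both viruses against control, lower, and 1 against LCN13 shRNA, higher. Of all genes above the 75th percentile, 5.24% were lower and 3.29% higher against control. Against LCN13 shRNA, 278 of these 5797 genes were lower and 121 higher. The medians of the high-level members were -0.151 for TSC22D4 shRNA, -0.103 for LCN13 shRNA and -0.154 for both, each against control. They were -0.0856 for both against LCN13 shRNA, -0.0902 for TSC22D4 against LCN13 shRNA and 0.093 for the interaction. Large minus small was -0.13 for LCN13 shRNA and 0.045 for both against control, 0.15 for both against LCN13 shRNA, 0.12 for TSC22D4 against LCN13 shRNA and 0.137 for the interaction. These settings take fewer genes, and other causes of the shifts were not tested.

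On removal of 1 array the median ranged from -0.046 to -0.00791 for TSC22D4 shRNA against control and from -0.0145 to 0.0169 for both against TSC22D4 shRNA. Large minus small ranged from -0.0507 to -0.0143 for LCN13 shRNA and from -0.0377 to 0.0516 for both viruses, each against control, from -0.0013 to 0.0402 for both against TSC22D4 shRNA and from 0.0186 to 0.0728 for both against LCN13 shRNA. Over all genes the count past the threshold ranged from 36 to 105 for TSC22D4 shRNA, 77 to 280 for LCN13 shRNA and 334 to 1106 for both, each against control, on removal of 1 array, against 78, 197 and 1007 with all, and was 33, 18 and 124 with the compared arrays alone. It ranged from 318 to 1320 for both against LCN13 shRNA (977 with all arrays, 543 with array weights, 0 with the compared arrays alone), from 0 to 198 for TSC22D4 against LCN13 shRNA (29, then 235 and 84, and 18 with the trend and robust options), and from 3 to 50 for the interaction (29). Array weights gave 177 for TSC22D4 and 340 for LCN13 shRNA against control, the average over both backgrounds 1022 for TSC22D4 virus, and genes above the median level 67 for TSC22D4 against LCN13 shRNA and 51 for the interaction. No paired analysis was possible because the groups share no animal numbers. Groups of 3 arrays limit the precision, and 28 of the 62 members read below the median level, where changes are compressed.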
